A study of Mus musculus with 13 samples.

Results

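RNA of oocytes taken from mouse ovaries 4 h after γ-irradiation with 0.5 Gy was compared with RNA of oocytes at 0 h, in the 2 libraries of each time point, which are 4 of the 13 libraries of the series. The labels give each library a generation, and the 4 h library of the first and of the second generation was set against the 0 h library of the same generation. Ovaries of P5 female CD-1 mice were cultured overnight, exposed to a caesium-137 source, dissolved in trypsin at each time point, and the oocytes were separated from follicular cells by repeated short centrifugation. All 4 libraries come from the same strain, age, tissue and dose setting, and the 0 h ovaries are described as non-irradiated in the text of the study and as 0 h after irradiation in the labels. The study followed the response at 5 time points up to 6 h and at a lower dose of 0.2 Gy, and asked which genes change before the oocytes die. What a generation stands for (a batch, a litter or a shipment) is not given in the sources used here, and the methods give a number of ovaries per time point without saying whether it holds for each library. The p-values therefore measure only the spread between these libraries. The generations used here are those of the labels, while a supplementary table of read totals gives the 1 h and 4 h libraries in the opposite order of generations.

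In resting oocytes, the p53 family member TAp63α is held in an inactive form and becomes an active transcription factor once DNA breaks have been signalled by the checkpoint kinases. It recognizes the same DNA element as p53 and shares many of its targets, among them cell cycle inhibitors, death receptors and BH3-only proteins of the BCL2 family. Oocytes of primordial follicles are arrested in meiosis and are lost after doses that most other cells survive.

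The files hold estimated reads per transcript, which were summed per gene and are given as CPM, the usual share of a library's reads, after TMM scaling. The 0 h libraries held 26081298 reads in the first and 15709549 in the second generation, and the 4 h libraries held 26203391 and 28169108. A count of up to 3 reads is compatible with 0, which corresponds to 0.121 and 0.203 CPM at 0 h and to 0.117 and 0.114 CPM at 4 h and covers counting error only. The 2 libraries of 0 h were less alike (r = 0.945 across genes of log2 CPM) than those of 4 h (r = 0.960), and 1151 against 719 protein-coding genes differed by more than 2 on the log2 scale between them. All 18 oocyte markers were present in every library, with summed levels of 7499 and 7517 CPM at 0 h and 6648 and 7723 CPM at 4 h. RNA of other ovarian cells was present too, with 2386 and 1590 CPM of 13 granulosa cell markers at 0 h and 1718 and 2307 CPM at 4 h, so that fewer cells of a type and less RNA per cell cannot be told apart.

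*Cdkn1a*, *Mdm2* and *Eda2r* were higher in both libraries of 4 h than in either library of 0 h. *Cdkn1a* (ENSMUSG00000023067, GRCm38 chr17:29090976-29100727, plus strand), which encodes the cyclin-dependent kinase inhibitor p21, had 3.72 and 4.25 CPM at 0 h and 45.8 and 94.3 CPM at 4 h in the first and second generation. This is a 12.3-fold and a 22.2-fold rise. *Mdm2* (ENSMUSG00000020184, chr10:117688875-117710758, minus strand), the ubiquitin ligase that marks p53 for degradation, went from 58.0 to 234 CPM and from 64.0 to 476 CPM, which is a 4.04-fold and a 7.44-fold rise. *Eda2r* (ENSMUSG00000034457, chrX:97333840-97377216, minus strand), a receptor of the TNF receptor superfamily, went from 3.48 to 39.7 CPM and from 2.09 to 47.3 CPM, or 11.4-fold and 22.6-fold. The 0 h libraries were within 2-fold of each other for all 3 genes. At 1 h, *Cdkn1a* was at 6.32 and 11.6 CPM, *Mdm2* at 53.1 and 75.9 CPM and *Eda2r* at 6.69 and 5.41 CPM, all far below the 4 h libraries.

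Per transcript length, the level of *Mdm2* was the highest of the 3 at each time point. Its TPM was 5.98 and 10.9 at 0 h and 32.1 and 79.4 at 4 h, *Cdkn1a* had 1.74 and 2.31 TPM at 0 h and 17.3 and 37.1 TPM at 4 h, and *Eda2r* had 0.329 and 0.172 TPM at 0 h and 3.70 and 5.16 TPM at 4 h.

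In edgeR's quasi-likelihood fit of all 8 libraries of 0.5 Gy with the time point alone, 28468 genes passed the filter on low counts, of which 19018 code for proteins. With calls made where the adjusted p was under 0.05 and the log2 fold change past 1, no protein-coding gene was called, which is 0% of those tested, and the smallest adjusted p was 0.0631, shared by *Eda2r* and *9930012K11Rik*. At an unadjusted p under 0.05 there were 1133 of the 19018 protein-coding genes, of which 744 were higher and 389 lower at 4 h. DESeq2 with the beta prior that the study describes, run without that filter, called 96 protein-coding genes in the same libraries, 77 higher and 19 lower. Without the filter, edgeR itself called 49, so the 96 and the 0 are not from the same set of genes. With the filter, limma-voom called 0, with 1062 genes at an unadjusted p under 0.05. With the generation as a further term, edgeR called 4 genes, or 0.021% of the protein-coding genes tested, and all 4 were higher at 4 h. None of the 4 was called when the generations of the 4 h libraries, or of the 1 h and 4 h libraries, were exchanged in this term, where the smallest adjusted p was 0.0504 and 0.126. These were *Cdkn1a* (adjusted p = 0.0222 with the term, 0.0874 without), *Eda2r* (0.0387 and 0.0631), *Mdm2* (0.0476 and 0.245) and *9930012K11Rik* (0.0476 and 0.0631). The log2 fold changes without the term were 4.16 ± 0.48 (SE) for *Cdkn1a*, 3.97 ± 0.39 for *Eda2r*, 2.57 ± 0.38 for *Mdm2* and 3.56 ± 0.36 for *9930012K11Rik*. The last of these has no described function that could be given here, and its level went from 6.59 to 50.5 CPM and from 4.59 to 80.3 CPM. An exact permutation test of 2 libraries against 2 cannot go below p = 0.333, so the p-values given for single genes come from the fit across all genes.

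Because so few genes were called, genes are described below by a rule without a test. A gene is said to have risen in both generations if its log2 CPM was more than 1 higher at 4 h than at 0 h in the first and in the second generation and it had at least 1 CPM in both 4 h libraries, and falls are defined in the mirrored way. By this rule 278 protein-coding genes rose, which is 1.46% of those tested, and 159 fell, which is 0.836%. Another 316 genes moved by more than 1 in opposite directions, 147 of them up in the first and 169 up in the second generation. Across all genes the differences of the 2 generations hardly followed each other (Pearson r = 0.0474 across genes, which are not independent replicates). Among the 8885 genes with at least 10 CPM in all 4 libraries, r was 0.0744, and 19 of these rose, 12 fell and 18 moved in opposite directions. Genes next to the threshold were *Bmp5* just inside (1.00 in both generations) and *Tyrobp* just outside (1.38 and 1.00) for rises, and *Mdfic* just inside (-1.15 and -1.004) and *Nova1* just outside (-0.998 and -1.07) for falls.

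**Figure D1:**
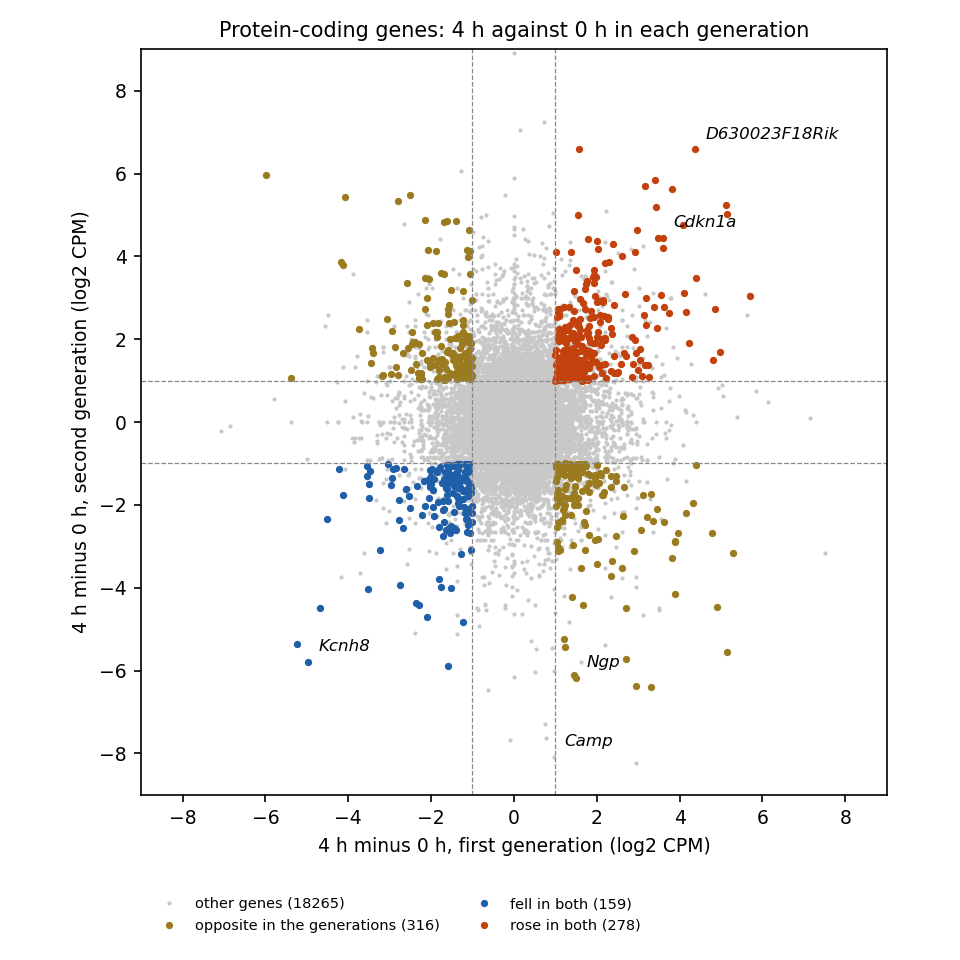
Difference between 4 h and 0 h in log2 CPM for each of 19018 protein-coding genes, in the first generation (horizontal axis) and in the second (vertical axis), with dashed lines at a difference of 1. The 278 genes that rose in both generations lie at the upper right with *Cdkn1a* and *D630023F18Rik* near the corner, the 159 that fell in both at the lower left, and 316 genes lie in the corners of opposite sign, where *Ngp* is found.

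In the promoters of RefSeq (build GRCm38.p6, 250 bases before each start), the half-site consensus of p53 was searched on both strands. It was found for 24 of 201 genes that rose in both generations and had a promoter entry (11.9%), for 10 of 110 genes that fell in both (9.09%) and for 1070 of 14540 tested protein-coding genes (7.36%), and 7.13% of all promoter windows of this length hold it. The matches of genes described below are shown with 20 bases on either side, in the direction of transcription and with the half-site in capitals, since they show how the element sits before a RefSeq start of 6 genes that rose, *Cdkn1a*, *Mdm2*, *Ccng1*, *Ppm1d*, *D630023F18Rik* and *Lhx3*.
Cdkn1a, chr17:29090908-29090957, plus strand: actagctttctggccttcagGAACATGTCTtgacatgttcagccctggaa
Cdkn1a, chr17:29090886-29090935, plus strand: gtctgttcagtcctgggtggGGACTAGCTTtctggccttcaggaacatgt
Mdm2, chr10:117710915-117710964, minus strand: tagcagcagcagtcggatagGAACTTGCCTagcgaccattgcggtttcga
Ccng1, chr11:40755442-40755491, minus strand: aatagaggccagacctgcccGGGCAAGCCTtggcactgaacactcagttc
Ppm1d, chr11:85311102-85311151, plus strand: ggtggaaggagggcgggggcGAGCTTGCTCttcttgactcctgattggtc
D630023F18Rik, chr1:65123304-65123353, minus strand: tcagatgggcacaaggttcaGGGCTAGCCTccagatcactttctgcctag
Lhx3, chr2:26206785-26206825, minus strand: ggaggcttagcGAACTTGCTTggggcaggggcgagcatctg
The matches begin 51 and 73 bases before a RefSeq start of *Cdkn1a* near the upstream end of its span. They begin 186 bases before a start of *Mdm2*, 185 before *Ccng1*, 132 before *Ppm1d*, 119 before *D630023F18Rik* and 239 before a start of *Lhx3*, near the far end of the searched window. Which starts are used in these oocytes was not tested. *Lhx3* has more than 1 RefSeq start, and this one is internal, since the gene spans chr2:26200212-26208289 on the minus strand and the match lies inside it. A match of these letters is a description and not a binding site, and elements in introns or farther away were not searched.

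Of 12 p53 targets that act on the cell cycle, 7 rose in both generations and none fell, where 1.46% and 0.836% of all protein-coding genes did. The median log2 fold change was 1.78 against 0.04 over all protein-coding genes. The list holds the marker *Cdkn1a*. Like the lists below, it was chosen with earlier results of these data known, so such counts are no independent support. *Ccng1*, which encodes cyclin G1, went from 45.03 to 193 CPM and from 79.7 to 319 CPM, 4.28-fold and 4.01-fold. *Sfn*, which encodes 14-3-3σ, had 0.323 and 1.01 CPM at 0 h and 4.09 and 7.44 CPM at 4 h. The antiproliferative gene *Btg2* went from 69.8 to 172 CPM and from 99.5 to 204 CPM, the smallest fold of the 7 in the second generation (2.05-fold). *Gtse1*, *Psrc1* and *Zmat3*, which encode 2 proteins of microtubules and an RNA-binding zinc finger protein, ended at 20.1 to 45.5 CPM, between 2.35-fold and 4.69-fold above 0 h. The groups did not overlap for any of the 7, which follows largely from the rule that chose them. Among the members outside the rule, *Gadd45a* had 12.2 and 15.3 CPM at 0 h and 13.2 and 8.92 CPM at 4 h, and *Ccng2* had 39.0 and 62.2 CPM against 33.4 and 26.9 CPM.

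**Figure D2:**
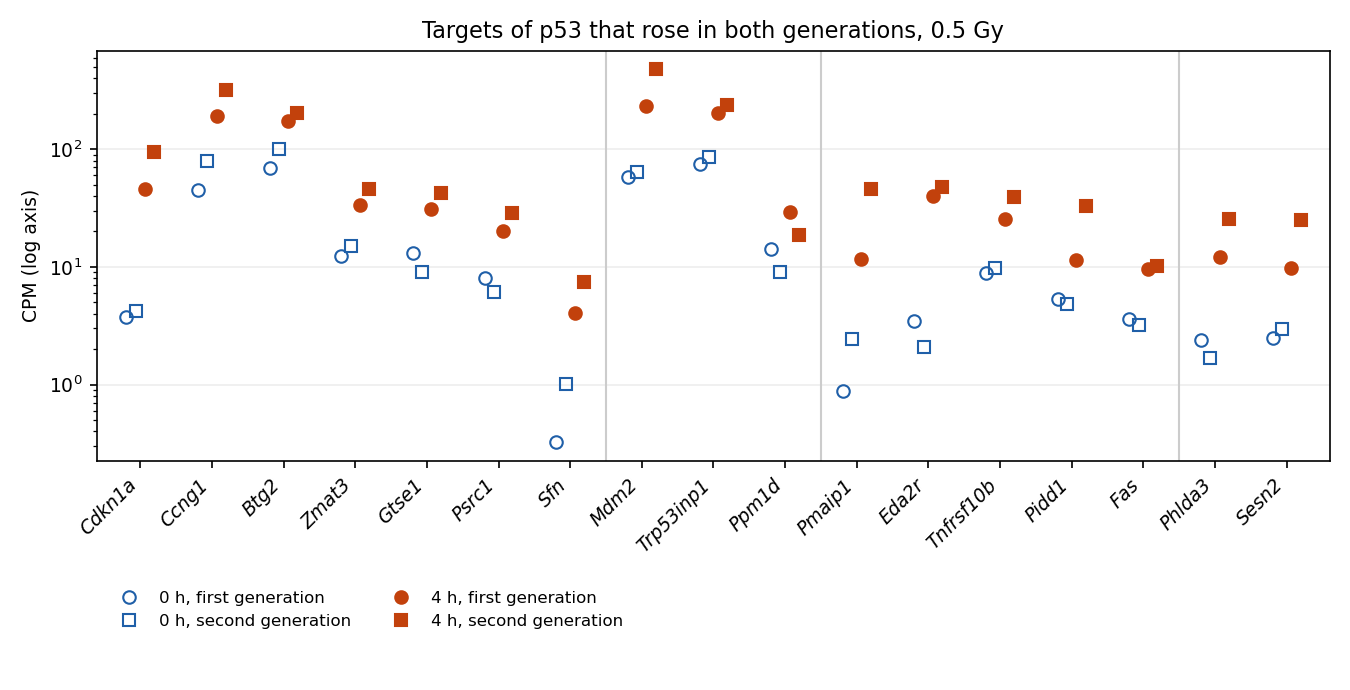
CPM (log axis) of 17 p53 targets that rose in both generations, in each library of 0 h (open symbols) and 4 h (filled symbols), with circles for the first and squares for the second generation. Vertical lines separate cell cycle, feedback, cell death and metabolism genes, and for each gene both 4 h libraries lie above both 0 h libraries, from *Sfn* at 4.09 and 7.44 CPM to *Mdm2* at 234 and 476 CPM. The genes were chosen by the rule on these libraries, which makes this separation likely.

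Among 15 p53 targets that act in cell death, 5 rose in both generations and none fell, with a median log2 fold change of 1.02. Of all protein-coding genes, 1.46% rose and 0.836% fell. The 4 h libraries lay above the 0 h libraries for 13 of the 15, where 18.5% of all genes tested did so. *Pmaip1* (ENSMUSG00000024521), which encodes the BH3-only protein NOXA, went from 0.889 to 11.7 CPM and from 2.43 to 46.3 CPM, 13.2-fold and 19.0-fold. *Pidd1*, a scaffold for caspase-2, went from 5.30 to 11.5 CPM and from 4.86 to 32.9 CPM. The death receptor genes *Tnfrsf10b* and *Fas* reached 25.4 and 39.1 CPM and 9.51 and 10.1 CPM from 8.93 and 9.72 CPM and 3.60 and 3.24 CPM. *Bbc3*, which encodes the BH3-only protein PUMA, had 1.37 and 0.810 CPM at 0 h and 1.60 and 2.20 CPM at 4 h, a log2 fold change of 0.81 ± 0.70 (SE, adjusted p = 0.897 in edgeR). *Bax* had 42.2 and 29.3 CPM against 64.4 and 122 CPM, so that its difference passed 1 in the second generation only.

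Of 12 further members of the BCL2 family and 12 caspase and apoptosome genes, none rose or fell in both generations, where 1.46% and 0.836% of all protein-coding genes did. *Casp9* had 24.9 and 31.3 CPM at 0 h and 27.9 and 41.0 CPM at 4 h, and *Mcl1* had 63.8 and 66.2 CPM against 57.4 and 44.2 CPM. The extremes of the first list were *Bmf*, with a log2 fold change of 0.83 ± 0.57, and *Hrk*, with -1.30 ± 0.78. Those of the second were *Dffb*, with 0.98 ± 0.42, and *Cycs*, the gene of cytochrome c, with -0.72 ± 0.30.

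In the TNF receptor list, 3 of 14 genes rose in both generations, where 1.46% of all protein-coding genes did. The receptor genes *Eda2r*, *Tnfrsf10b* and *Fas*, which rose too, are counted with the cell death targets and not here. *Traf3* and *Traf4*, adaptors of TNF receptors, went from 8.93 and 8.37 CPM to 24.1 and 37.5 CPM and from 5.54 and 6.62 CPM to 18.6 and 17.5 CPM. The kinase gene *Ripk4* went from 6.91 and 8.37 CPM to 17.8 and 34.6 CPM, while *Ripk1* had 24.0 and 37.1 CPM at 0 h and 22.5 and 22.9 CPM at 4 h.

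The p53 family genes themselves were not among the rises. *Trp63* had 50.7 and 105 CPM at 0 h and 78.4 and 75.0 CPM at 4 h, so that the 4 h values lie between the 0 h values and the log2 fold change was 0.00 ± 0.36 (SE). *Trp53* had 138 and 76.6 CPM at 0 h and 108 and 121 CPM at 4 h, again with overlapping groups. *Trp73* was low at 0 h, with 0.647 and 0.203 CPM, and had 1.17 and 5.08 CPM at 4 h, a difference of 0.78 in the first and 4.21 in the second generation. Of the feedback genes, *Trp53inp1* rose 2.75-fold and 2.77-fold to 205 and 236 CPM, and the phosphatase gene *Ppm1d* rose 2.06-fold and 2.07-fold to 29.2 and 18.6 CPM. *Mdm4*, the partner of MDM2, was lower in both generations by less than the rule asks, with 271 and 363 CPM at 0 h and 213 and 252 CPM at 4 h.

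Of 12 p53 targets of metabolism and TOR signalling, 2 rose in both generations, where 1.46% of all protein-coding genes did. *Phlda3*, an inhibitor of Akt, went from 2.38 to 12.1 CPM and from 1.69 to 25.5 CPM. *Sesn2*, an inhibitor of TORC1, went from 2.47 to 9.78 CPM and from 2.97 to 25.2 CPM. The related genes *Sesn1* and *Sesn3* had 63.1 and 82.3 CPM and 99.0 and 77.8 CPM at 0 h, against 95.9 and 91.6 CPM and 79.0 and 72.5 CPM at 4 h.

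None of 10 p53 targets of DNA repair, 14 genes of homologous recombination or 10 DNA damage kinases rose or fell in both generations, and their median log2 fold changes were 0.24, 0.08 and -0.03. Over all protein-coding genes 1.46% rose and 0.836% fell, so a count of 0 in lists of this size is near the background. *Polk*, a translesion polymerase, came closest to the rule among them, with 27.1 and 28.2 CPM at 0 h and 52.2 and 63.6 CPM at 4 h, differences of 0.94 and 1.17. *Brca2* had 108 and 125 CPM against 76.3 and 83.6 CPM, and *Chek1* had 110 and 87.1 CPM against 50.7 and 69.2 CPM. In lists taken from the supplement of the study, 15 of 64 p53 targets, 2 of 21 apoptosis genes and 0 of 38 repair genes rose in both generations and none fell.

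Expression clusters that the study had drawn from these libraries cannot count as independent evidence of direction. By the rule used here, 17 of 18 genes of its rising cluster 7, 15 of 20 of cluster 3 and 13 of 15 of cluster 5 rose in both generations, where 1.46% of all protein-coding genes did. Of its falling genes, 2 of 3 in cluster 7, 4 of 5 in cluster 3 and 3 of 6 in cluster 8 fell in both, where 0.836% of all protein-coding genes did. These falling genes summed to 45.7 and 64.9 CPM (cluster 7), 24.6 and 45.8 CPM (cluster 3) and 548 and 1670 CPM (cluster 8) at 0 h of 0.5 Gy. In the single library at 0 h of 0.2 Gy the sums were lower, at 15.8, 8.19 and 33.7 CPM. The cause was not tested.

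The 278 rises were mostly genes of low level. Both 0 h libraries were under 1 CPM for 96 of them, and such genes could pass the rule only by being higher at 4 h. At the other end, 68 had at least 10 CPM in both 4 h libraries. The median difference was 1.58 in the first and 1.72 in the second generation, and the larger of the 2 was in the second generation for 160 genes. For 272 of the 278 the groups did not overlap, a form of separation seen in that direction for 18.5% of all genes tested, and 222 had an unadjusted edgeR p under 0.05. DESeq2 called 70 of them. Over all protein-coding genes, 1133 had such a p and DESeq2 called 96. The rule was applied to the same 4 libraries, so these counts follow largely from it and are no further support.

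Most of the large rises named outside the p53 lists began from few reads, while *9930012K11Rik*, given above, began from 163 and 68 reads. *D630023F18Rik* (ENSMUSG00000044816, chr1:65105285-65123214, minus strand), a gene without a described function that could be given here, had 0.606 and 0.608 CPM at 0 h and 14.03 and 65.8 CPM at 4 h, 23.1-fold and 108-fold. *Lhx3*, a LIM homeobox transcription factor gene, had 0.121 and 0.068 CPM at 0 h, which is within the reach of a count of 0, and 2.07 and 5.12 CPM at 4 h. *Ankrd65* had 0.121 and 0.068 CPM against 2.73 and 6.98 CPM, and *Ttll10*, of the tubulin ligase family, 0.121 and 0.338 CPM against 4.05 and 4.55 CPM. *Igfals*, a subunit of the IGF complex of the blood, went from 0.485 to 9.55 CPM and from 0.810 to 7.63 CPM. *Hes2*, a transcriptional repressor gene, had 0.202 and 0 CPM against 2.42 and 3.87 CPM, and the claudin gene *Cldn6* 0.040 and 0.203 CPM against 1.29 and 2.24 CPM. The retinoic acid receptor gene *Rarg* had 0.404 and 0.405 CPM against 5.18 and 2.24 CPM. At 1 h, *Rarg* was already at 2.88 and 2.05 CPM and *Cldn6* at 0.162 and 2.05 CPM, and *Cldn6* was at 0.075 CPM at 6 h. *D630023F18Rik*, *Lhx3*, *Ankrd65*, *Ttll10*, *Igfals* and *Hes2* were under 1 CPM in both libraries of 1 h.

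Part of the top of the rise list rested on genes that share sequence or on levels that also varied before. *Gm15023* was at 0 reads in both 0 h libraries and at 2.57 and 2.77 CPM at 4 h, at least 16.5-fold higher when 3 reads per library are set against it, but all of its 30-base words also occur in *AV320801*. *Gm28778* and *Gm20683*, likewise at 0 at 0 h and at 1.21 to 2.61 CPM at 4 h, share 96.2% and 95.0% of their words with other genes, so salmon could have moved reads between them. At 1 h, *Gm15023* was already at 2.23 and 2.09 CPM, *Gm28778* at 0.365 and 3.06 CPM and *Gm20683* at 0.243 and 2.72 CPM. *Gm15023* also had 3.89 CPM at 0 h of 0.2 Gy. *Trim5* shares 54.2% with *Trim12c* and relatives, and had 0.162 and 0.405 CPM at 0 h and 12.3 and 3.91 CPM at 4 h. *Siglece*, an inhibitory receptor of myeloid cells, had 0.687 and 0.135 CPM at 0 h and 8.07 and 12.0 CPM at 4 h, but 11.6 and 1.19 CPM at 1 h, so the first-generation library of 1 h was already at the level of 4 h.

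Of the 159 falls, few were of high level. Both 4 h libraries were under 1 CPM for 62, and 28 had at least 10 CPM in both 0 h libraries. The median difference was -1.54 in the first and -1.60 in the second generation. For 151 the groups did not overlap, which in that direction held for 15.7% of all genes tested. An unadjusted edgeR p under 0.05 was found for 111, and DESeq2 called 14. Of all 19018 protein-coding genes tested, 389 had such a p and were lower at 4 h, and DESeq2 called 19 lower. These counts too follow largely from the rule, which used the same 4 libraries.

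*Kcnh8* (ENSMUSG00000035580, chr17:52602709-52979194, plus strand), a voltage-gated potassium channel gene, had 12.0 and 8.30 CPM at 0 h and 0.312 and 0.076 CPM at 4 h. Its log2 fold change was -5.66 ± 0.90 (SE, adjusted p = 0.263 in edgeR), and at 1 h it was already at 1.22 and 3.66 CPM. *Ccdc184* (ENSMUSG00000029875, chr15:98167158-98170134, plus strand), which encodes a coiled-coil protein, went from 55.7 to 10.7 CPM and from 116 to 5.58 CPM, with 21.7 and 12.2 CPM at 1 h. Of genes with at least 10 CPM in both 0 h libraries, *Arhgap15*, a GTPase-activating protein of Rac, had the lowest log2 fold change (-3.47), from 445 to 104 CPM and from 1254 to 47.5 CPM. It was chosen after its values were seen, and its 0 h libraries differed by more than 2-fold from each other. *Car1*, a carbonic anhydrase of red blood cells, had 3.03 and 12.4 CPM at 0 h and 0.195 and 0.683 CPM at 4 h. In the single library at 0 h of 0.2 Gy, *Kcnh8*, *Ccdc184* and *Car1* had 0.877, 0.555 and 0.585 CPM. These are below both 0 h libraries of 0.5 Gy.

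*Ifit3*, an interferon-stimulated gene, was the single member of 20 such genes that fell in both generations, with 2.67 and 2.16 CPM at 0 h and 0.351 and 0.304 CPM at 4 h. None of the 20 rose, and 62.5% of the 30-base words of *Ifit3* are shared, most with *Ifit3b*. The glutathione-degrading stress gene *Chac1* had 2.47 and 3.92 CPM against 0.857 and 0.607 CPM, and was the single member of 10 endoplasmic reticulum and integrated stress genes in either direction. The immediate early gene *Egr3*, alone among 13, fell by the rule with overlapping groups (1.21 and 2.90 CPM against 0.351 and 1.25 CPM). Of all protein-coding genes, 1.46% rose and 0.836% fell. Other strong falls had few or shared reads. *Pcdha4* and *Gm9040* had 1.62 to 3.04 CPM at 0 h and 0 reads at 4 h, at least 15.1-fold and 25.3-fold lower when 3 reads per library are set against them, but 92.3% and 100% of their words occur in other genes. *Myf6*, a myogenic factor gene, had 1.01 and 1.22 CPM at 0 h and 0.039 and 0.076 CPM at 4 h, *Mug2* had 2.30 and 1.69 CPM against 0.273 and 0.266 CPM, and *Gm3558* and *Gm26965* were at 0 in a single library of 4 h each and had 0.390 and 0.873 CPM in the other. At 0 h of 0.2 Gy, *Myf6* and *Mug2* were low as well, at 0.234 and 0.175 CPM. *Ifit3*, *Chac1* and *Gm26965* had 1.75, 1.96 and 2.48 CPM there.

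**Figure D3:**
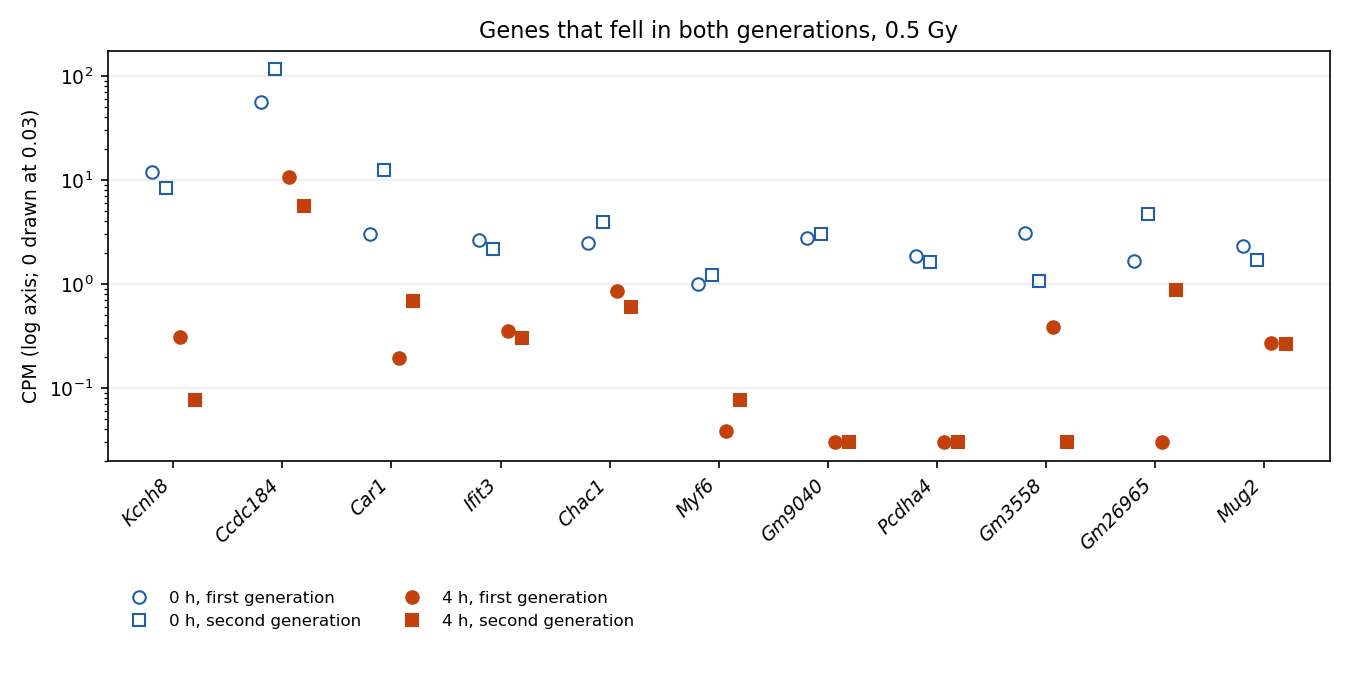
CPM (log axis, with a count of 0 drawn near the lower edge) of 11 named genes that fell in both generations, in each library of 0 h (open symbols) and 4 h (filled symbols), with circles for the first and squares for the second generation. Both 4 h libraries lie below both 0 h libraries for each gene, and *Ccdc184* at 10.7 and 5.58 CPM is the only one of the 11 that stays above 1 CPM at 4 h. The genes were chosen by the rule on these libraries, which makes this separation likely.

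Some differences between 4 h and 0 h existed against 1 library of 0 h and not against the other. A difference was assigned to a library of 0 h if the mean log2 CPM of the 4 h libraries was more than 2 away from it and less than 0.5 away in that direction from the other 0 h library. Against the first-generation library of 0 h, 88 genes rose in this way (0.463% of those tested) and 31 fell (0.163%). Against the second-generation library, 116 rose (0.61%) and 41 fell (0.216%). These were 264 genes, of which 12 stood between the 2 libraries of 0 h, as a rise against one and a fall against the other, and 61 moved in opposite directions in the generations. Both 1 h libraries lay on the 4 h side of the first library of 0 h for 76 of 88 rises and 30 of 31 falls. For the second library of 0 h this held for 100 of 116 rises and 33 of 41 falls. Since these 0 h values were picked as extreme ones, such counts would be high anyway. The 4 h mean was more than 1 past the 1 h mean for 22 rises and 11 falls against the first library. Against the second it was so for 29 rises and 11 falls.

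**Figure D4:**
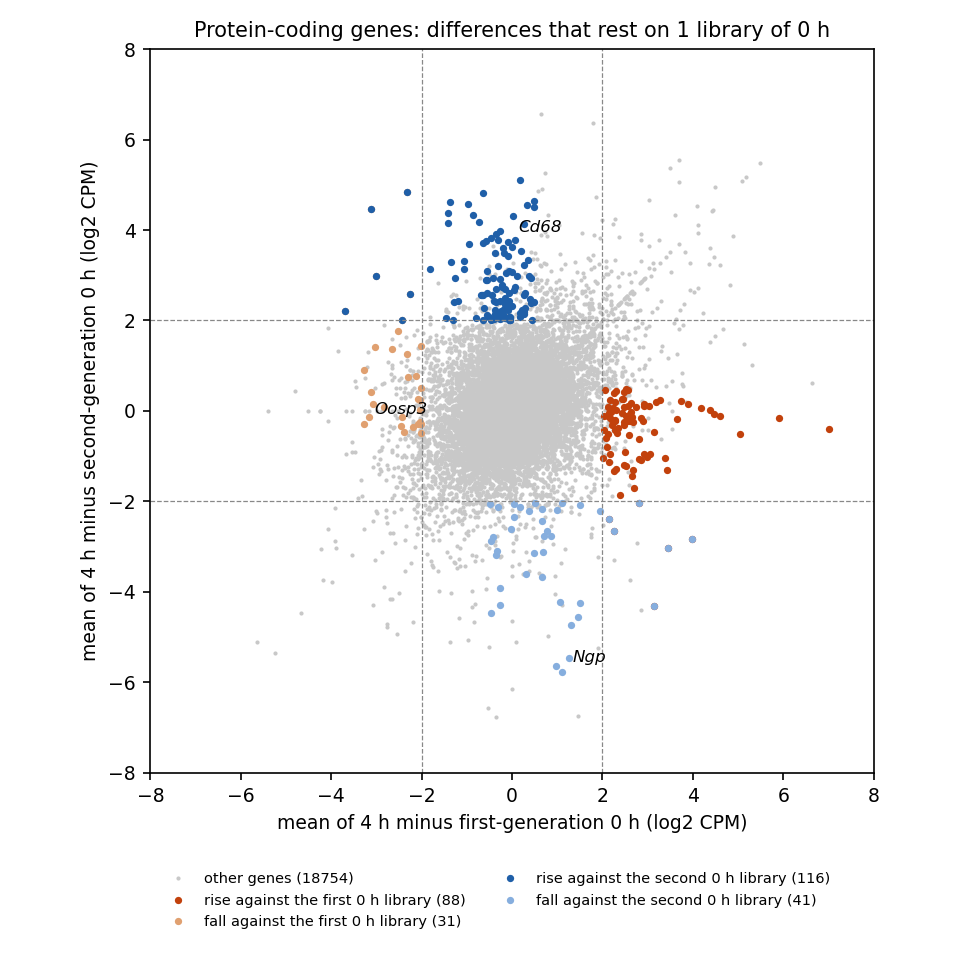
Mean log2 CPM of the 4 h libraries minus the first-generation library of 0 h (horizontal axis) and minus the second-generation library of 0 h (vertical axis) for 19018 protein-coding genes, with dashed lines at a difference of 2. The 116 rises and 41 falls against the second library lie above and below near the vertical axis, with *Ngp* lowest among the labelled genes, and the 88 rises and 31 falls against the first library lie right and left near the horizontal axis.

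Granulocyte genes were high in the second-generation library of 0 h alone. The 11 granulocyte genes tested summed to 492 CPM there, against 11.8 CPM in the first-generation library of 0 h and 14.6 and 13.9 CPM at 4 h. Over the other 0.5 Gy libraries, the sum lay between 8.64 CPM at 6 h and 18.04 CPM in the first-generation library of 1 h. *Ngp*, a neutrophil granule gene, had 172 CPM in that library, 1.37 CPM in the other at 0 h and 4.01 and 2.31 CPM at 4 h. *S100a8*, a calcium-binding protein gene of neutrophils, had 132 CPM against 1.17, 2.84 and 2.998 CPM. *Camp*, the cathelicidin gene, had 30.7 CPM against 0.283, 0.623 and 0.038 CPM. *Lcn2*, which encodes lipocalin-2 of neutrophil granules, had 16.7 CPM against 0.970, 1.44 and 0.304 CPM. All 11 genes had their highest value of the 4 libraries in this one, and 4 of them met the rule for a fall against it. *Ltf* and *Prg2* met the rule for a fall in both generations, but *Ltf* had 58.3 CPM there against 2.14 CPM in the first generation and 0.584 and 3.61 CPM at 4 h, and *Prg2* had 17.8 CPM against 3.36, 0.896 and 1.21 CPM.

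Several genes of red blood cells and their precursors were high in the same library. *Car2* had 123 CPM there and 8.21 CPM in the other library of 0 h, against 9.74 and 10.5 CPM at 4 h. *Hemgn* had 23.4 against 0.283 CPM at 0 h and 0.156 and 0.190 CPM at 4 h, and *Slc4a1*, the band 3 anion exchanger gene, had 21.0 against 1.62 CPM at 0 h and 2.10 and 4.33 CPM at 4 h. The globin genes went another way. *Hbb-bs* had 1437 and 1459 CPM at 0 h and 2613 and 2489 CPM at 4 h, and *Hba-a1* had 1174 and 603 CPM against 2108 and 1780 CPM, so that both libraries of 4 h were above both libraries of 0 h, with an unadjusted edgeR p of 0.00756 and an adjusted p of 0.790 for *Hba-a1*. Of its 30-base words, 75.8% are shared, most with *Hba-a2*. How far blood cells among the isolated oocytes enter the comparison was not tested.

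**Figure D5:**
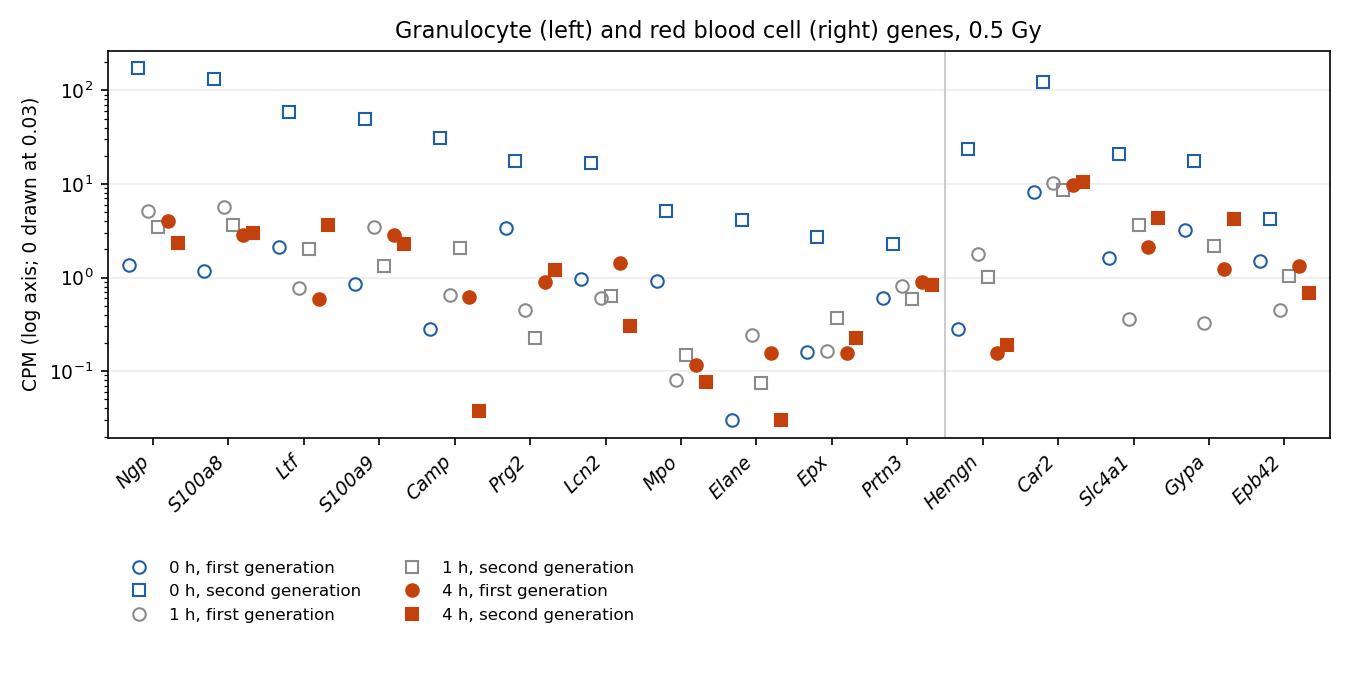
CPM (log axis, with a count of 0 drawn at the lower edge) of 11 granulocyte genes and 5 genes of red blood cells in both generations (circles and squares) at 0 h (blue), 1 h (grey) and 4 h (filled). The open blue squares, the second-generation library of 0 h, lie above the other 5 libraries for each gene, and for *Ngp* they stand at 172 CPM where the others are at 1.37 to 5.11 CPM.

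Leaving out a library of 0 h changed which genes edgeR called. Without the first-generation library, 8 genes passed, of which 2 were higher and 6 lower at 4 h. The falls were *Ngp* (log2 fold change -5.76), *S100a8* (-5.49), *Hemgn* (-7.03), *Car2* (-3.60), *Gpr19* (-3.96) and *Arhgap15* (-4.04), and the rises were *Eda2r* (4.38) and *Gm20721* (3.97). *Gpr19*, an orphan receptor gene, had 42.3 and 274 CPM at 0 h and 22.9 and 12.1 CPM at 4 h. Of the 6 falls, *Arhgap15* alone met the rule for a fall in both generations. Without the second-generation library of 0 h, edgeR called 0 genes, and 1239 had an unadjusted p under 0.05. In these fits the remaining 0 h library is assumed to vary like those of the other time points.

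In the other direction, *Flrt1*, chosen after its values were seen, had 9.98 and 2.57 CPM at 0 h and 14.3 and 13.6 CPM at 4 h. The macrophage gene *Cd68* was nearly missing from the second-generation library of 0 h, at 0.270 CPM, and had 4.77 CPM in the first and 4.52 and 4.48 CPM at 4 h. The other 7 macrophage genes did not share this pattern: *Csf1r* had 5.46 and 8.30 CPM at 0 h and *Lyz2* 35.7 and 55.8 CPM. Several genes with the widest gap between the 0 h libraries had shared sequence, such as *Gm28036* (97.3% of words) with 0 and 12.8 CPM at 0 h and 4.29 and 21.6 CPM at 4 h, *Rpl9-ps6* (93.0%) with 0 and 5.06 CPM against 2.22 and 9.03 CPM, and *Gm6408* (72.9%) with 4.77 and 0 CPM against 1.52 and 2.13 CPM. *Gm20509*, *Hist1h2ap*, *Gm11273* and *Gm13304* were each at 0 in at least 1 library of 0 h and share 75.1% to 100% of their words with other genes.

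Rises against the first-generation library of 0 h included *Mpzl2*, with 5.86 and 25.2 CPM at 0 h and 28.1 and 29.4 CPM at 4 h, and *Pfkp*, the platelet phosphofructokinase gene, with 5.86 and 24.3 CPM against 29.5 and 22.7 CPM, both chosen after their values were seen. Falls against it included chemokine and oocyte genes. *Ccl21a* (ENSMUSG00000094686), a chemokine gene with close copies, had 32.7 CPM there and 0.473 CPM in the second generation, against 2.38 and 2.54 CPM at 4 h, and in the first-generation library of 1 h it was at 16.1 CPM. *Oosp3*, an oocyte-secreted protein gene chosen after its values were seen, had 33.7 CPM there, 4.19 CPM in the other library of 0 h and 1.91 and 6.00 CPM at 4 h. *Obox5*, an oocyte homeobox gene chosen in the same way, had 44.5 CPM against 8.91, 4.71 and 13.96 CPM. Among the oocyte markers, *Oosp1* had 74.7 and 15.2 CPM at 0 h and 15.5 and 32.4 CPM at 4 h, and *Bmp15*, a growth factor of growing oocytes, had 158 and 95.7 CPM against 33.4 and 91.9 CPM. Over the 18 oocyte markers the median difference was -0.21 in the first and 0.18 in the second generation, none met the rule for a difference resting on 1 library of 0 h, and none rose or fell in both generations. *Ddx4*, which encodes a germ cell RNA helicase, had 97.7 and 150 CPM at 0 h and 82.9 and 107 CPM at 4 h.

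Genes of steroid production and of follicle growth differed between the generations. *Hsd3b1* had 558 and 455 CPM at 0 h and 154 and 324 CPM at 4 h, a difference of -1.86 in the first and -0.49 in the second generation. *Cyp11a1*, the side-chain cleavage enzyme gene, went from 6.75 to 2.84 CPM in the first generation and from 1.96 to 18.2 CPM in the second. *Cyp17a1* went from 17.4 to 3.16 CPM and from 5.13 to 19.7 CPM. *Lhcgr*, the luteinizing hormone receptor gene, had the same form, with 11.8 to 3.97 CPM and 2.30 to 12.3 CPM. *Star* had overlapping groups, with 10.6 and 13.8 CPM at 0 h and 12.6 and 11.1 CPM at 4 h. *Hhip*, which encodes a protein that binds hedgehog ligands, had 41.1 and 15.5 CPM against 4.48 and 12.6 CPM, so its fall was large in the first generation and small in the second (-3.17 and -0.29). *Fshr*, the follicle-stimulating hormone receptor gene, had 21.6 and 15.1 CPM against 4.32 and 12.5 CPM. The amino acid enzyme gene *Cbs* had 10.6 and 3.92 CPM against 1.48 and 5.20 CPM, and the Notch ligand gene *Jag2* had 13.4 and 10.6 CPM against 14.9 and 26.6 CPM.

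Of 13 granulosa cell, 7 steroidogenic and 9 stroma genes none rose or fell in both generations, and the summed level of the stroma markers was 2701 and 2658 CPM at 0 h and 3010 and 2321 CPM at 4 h. Of 6 endothelial markers *Tie1*, a receptor kinase gene, alone rose, from 2.38 to 5.81 CPM and from 3.31 to 7.06 CPM. None of 10 heat shock genes met either rule. With 1.46% of all protein-coding genes rising and 0.836% falling, a count of 0 in such short lists is near the background.

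Among the 9450 tested genes that do not code for proteins, 103 rose and 126 fell in both generations, and these are not described further.

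Libraries that took no part in the rule allow the members to be looked at again. In the second generation, the libraries of 2.5 and 6 h were set against that of 1 h, which shares no library with the comparison of 4 h and 0 h. Their mean log2 CPM was more than 1 higher for 109 of the 278 rises (39.2%), against 7.20% of all protein-coding genes tested, and more than 1 lower for 19 (6.83%, against 5.61%). Of the 159 falls, 37 were more than 1 lower (23.3%, against 5.61%) and 18 more than 1 higher (11.3%, against 7.20%). After 0.2 Gy, with a single library at 0 h and at 4 h from another generation, 83 of the rises were more than 1 higher at 4 h (29.9%, against 4.92% of all genes) and 31 more than 1 lower (11.2%, against 11.1%). Of the falls, 31 were more than 1 lower there (19.5%) and 32 more than 1 higher (20.1%). *Cdkn1a* had 6.72 and 33.6 CPM, *Mdm2* 51.0 and 255 CPM, *Eda2r* 7.92 and 24.8 CPM, *Pmaip1* 1.93 and 21.9 CPM and *D630023F18Rik* 1.14 and 30.2 CPM at 0 h and 4 h of 0.2 Gy. Not all p53 targets that rose after 0.5 Gy did so there. *Pidd1* had 7.86 and 7.68 CPM, *Tnfrsf10b* 14.4 and 15.3 CPM and *Fas* 4.50 and 1.93 CPM. The median log2 difference after 0.2 Gy was 0.72 over the 12 cell cycle targets and 0.15 over the 15 cell death targets. Libraries of 2 doses come from different generations, so dose and generation cannot be told apart.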

How the data were processed

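RNA was reverse transcribed with the SMARTER kit and sequenced as short paired-end reads. The authors made the estimated counts and TPM values with salmon on Ensembl transcripts of GRCm38 and deposited them per transcript and library, without normalization between libraries or a filter. The estimated counts of 130740 transcripts were summed over 49585 genes of GENCODE (402 transcripts without a gene were left out) and rounded. Mitochondrial genes held 5.16% to 7.28% of the reads of the 4 libraries. Tests used edgeR 4.0.16 (TMM, filterByExpr, quasi-likelihood) over the 8 libraries of 0.5 Gy, with DESeq2 1.42.0 and limma 3.58.1 as alternatives in R 4.3.3, tested on simulated data, and Benjamini-Hochberg adjustment over all genes. A prior count of 2 was added before the log2 of CPM was taken. The deposited comparisons with 0 h (fold changes and p-values of the authors) and a merged table of pooled normalized counts were not used.

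Members and lists were chosen with earlier results of these data known. Named were *Cdkn1a*, *Mdm2* and *Eda2r*, p53 targets that met the rule with *Trp53*, *Trp63*, *Trp73*, *Mdm4*, *Bbc3* and *Pmaip1*, the 15 rises and 10 falls with the largest smaller difference, the 5 genes of each direction with the widest gap between the 0 h libraries, every gene called with or without the generation, the extremes of each other list, and 14 genes that the study names. Genes outside these are examples of lists or are marked as chosen after their values were seen. A 30-base word counted as shared if a transcript of another gene holds it on either strand.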

Additional observations from a re-analysis of the deposited data

Results flagged for a closer look

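Among named genes that rose or fell in both generations of 0.5 Gy, 5 differed by more than 1 on the log2 scale in the opposite direction in the single pair of libraries of 0.2 Gy, and for none of them was the difference between the doses tested. *Ccdc184* was 5.17 higher on the log2 scale at 4 h than at 0 h of 0.2 Gy, at 0.555 and 22.6 CPM, where it fell in both generations of 0.5 Gy. *Gm9040* was 5.03 higher, with 0 and 2.41 CPM, *Gm3558* 3.43 higher, with 0 and 0.742 CPM, and *Pcdha4* 1.70 higher, with 0.438 and 1.60 CPM. *Fas* differed by -1.19, with 4.50 CPM at 0 h and 1.93 CPM at 4 h of 0.2 Gy, and rose in both generations of 0.5 Gy. The 0.2 Gy libraries are single and of another generation.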

How the results depend on the processing

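Leaving out 1 library of 0 or 4 h gave 0 to 8 called genes (*Eda2r* among the 8, and 1 gene without the first-generation library of 4 h). The replicate block, the generation as a term, gave 4 calls, and 5 in a fit of the 0 and 4 h libraries alone. The deviations of same-generation libraries from their time point means correlated with 0.124 (0 and 1 h), 0.0759 (0 and 4 h) and 0.106 (1 and 4 h). With 2 libraries per time point, libraries of unlike generation give the same values with a minus sign. The positive signs are a weak hint from the data and not from the design, and they cannot settle the order of the generations. Exchanging the generations of the 4 h libraries, or of the 1 and 4 h libraries, gave 0 calls, with smallest adjusted p of 0.0504 and 0.126. DESeq2, run without the filter on low counts, gave 96 calls (77 higher) with and 101 (82 higher) without its beta prior. Without the filter, edgeR gave 49 (38 higher). The cause of these differences was not tested. Limma-voom, other size factors, upper quartile scaling, length-scaled sums and the 0 and 4 h libraries alone gave 0.

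Rises, falls and opposite moves numbered 474, 321 and 660 without a minimum level, 120, 54 and 107 at 5 CPM, and 778, 501 and 918 at 1.5-fold. With 1 in place of 2 as the threshold, 506 genes rose and 383 fell against the first and 742 rose and 447 fell against the second library of 0 h. Asking for a difference of 1 from the 1 h libraries too left 22, 11, 29 and 11. With the 4 h libraries exchanged, 277 rose, 159 fell and 376 were opposite.

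For 84 named genes in all alternatives, no call could be lost, since the main edgeR fit called none. Their sizes did move, with *Btg2* at 1.17 in that fit and 0.985 in DESeq2 with the beta prior, and *Ppm1d* at 1.07 and 0.84. Of the log2 fold changes, 1212 kept their direction without a new call, 105 were newly called and 25 changed sign. *Trp63* was at 0.040 with the replicate block, 0.042 and 0.079 with crossed blocks, 0.062 in 0 and 4 h alone with the block, 0.14 in limma-voom and 0.054 without the filter, *Star* at 0.015 in limma-voom and 0.030 without the filter, and *Brca2* at 0.0043 with length-scaled sums. The others changed sign when 1 library was left out, and their lowest and highest values over these fits were -1.73 to 0.11 for *Adgre1*, -0.74 to 1.05 for *Amh*, -8.47 to 0.25 for *Camp*, -0.050 to 4.04 for *Cd68*, -0.62 to 2.43 for *Cyp11a1*, -0.49 to 1.27 for *Hspa1b*, -1.40 to 0.54 for *Prtn3*, -0.22 to 0.20 for *Star*, -1.03 to 0.46 for *Tcf21*, -0.71 to 0.23 for *Tek*, -0.23 to 0.59 for *Trp53* and -0.45 to 0.63 for *Trp63*. Depth limits genes near 3 reads, most in the second-generation library of 0 h.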
